A study of Mus musculus with 30 samples.

Results

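Mouse embryonic stem (ES) cells that received doxycycline and 1% oxygen together for 6 hours were set against cells kept for the same 6 hours in plain N2B27 medium, and the combined change was compared with the sum of the changes that each treatment gave alone. The comparison used 4 samples of the combined treatment and 4 of N2B27, paired by replicate number, with the 4 samples of each single treatment as the parts of the sum. These are 16 of the 28 samples in the series, which were measured on 30 Illumina BeadChip arrays (1 colour, biotin-labelled cRNA). All cells were male ES cells of the Ainv15 line, plated on gelatin. The labels do not name the transgene in the text used here. From what is known of this study, doxycycline switches on a Notch1 intracellular domain in these cells. No cells without the transgene received doxycycline, so an effect of the drug itself and of the transgene cannot be told apart.

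The groups were N2B27 with doxycycline at 2 ug/ml under 1% oxygen (1% O2+Dox), N2B27 with doxycycline at the same dose (Dox), N2B27 under 1% oxygen without the drug (1% O2), and N2B27 alone (N2B27), each with n = 4. N2B27 is a serum-free medium without the serum and the LIF of ES cell medium, and all 4 groups shared it. The labels call the samples biological replicates without saying whether the cultures were separate, so the p-values measure only how far these samples scatter, and some of that scatter may be technical. Dox replicates 3 and 4 were each hybridised on 2 arrays, and the repeats were averaged.

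Notch is a cell surface receptor that is cut on contact with a ligand, and its intracellular domain then enters the nucleus, where it joins the DNA-binding protein RBPJ and switches on genes such as Hes1, Hes5, Hey1 and Nrarp. Low oxygen stops the prolyl hydroxylases that mark the alpha subunits of hypoxia-inducible factor (HIF) for destruction, and stable HIF switches on genes for glycolysis, glucose uptake, blood vessel growth and its own hydroxylases. Both pathways act in ES cells, and work in other cells has described contacts between the Notch intracellular domain and HIF-1alpha.

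Markers of ES cells were high in every group. The summed signal of 9 ES cell markers ranged from 35206 to 39630 in 1% O2+Dox cells, from 32129 to 39791 in Dox cells, from 31665 to 39460 in 1% O2 cells and from 33608 to 38487 in N2B27 cells. In all 4 groups several defining markers of other cell types lay at or below background on every array. These were Postn and Lum for fibroblasts, Foxa2, Afp and Ttr for endoderm, Elf5, Hand1 and Plac1 for trophectoderm, Mixl1, Mesp1 and Kdr for mesoderm, and Sox1, Pax6 and Neurog2 for neural cells. Other markers of the same lists were above background on most arrays. In 1% O2+Dox cells these were 3 of 8 for fibroblasts, 5 of 8 for endoderm, 3 of 6 for trophectoderm, 2 of 5 for mesoderm and 2 of 6 for neural cells. In N2B27 cells they were 4, 5, 2, 2 and 2. The summed signal of 8 fibroblast markers ranged from 370 to 774 in 1% O2+Dox cells and from 433 to 951 in N2B27 cells. For 8 endoderm markers it ranged from 1581 to 2580 in 1% O2+Dox cells and from 1703 to 2311 in N2B27 cells, and for 6 trophectoderm markers from 407 to 1649 and from 441 to 1192. For 5 mesoderm markers it was at most 329 in 1% O2+Dox cells and 278 in N2B27 cells, and for 6 neural markers at most 254 and 259.

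The replicates fell into 2 sets that the treatments do not explain. The first principal component carried 51.5% of the variance and placed replicates 1 and 2 of all groups on one side and replicates 3 and 4 on the other, a split whose origin is absent from the labels. The second component carried 18.3% and separated the samples under 1% oxygen from the rest. Between repeat arrays of 1 Dox sample, the SD of the log2 differences over genes was 0.21 to 0.23. It was 0.25 to 0.30 between replicates 1 and 2 or 3 and 4 of a group, and 0.49 to 0.55 across the sets. Replicates within a set thus differed little more than repeat arrays did. How many independent cultures the 4 samples of a group stand for is not known. Samples of the same number deviated together from their group means, with correlations from 0.7272 to 0.8289 over 24 pairs, and each model therefore held the replicate number as a block.

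The combined treatment changed 2211 of 9826 genes, or 22.5%, at a limma adjusted p under 0.05. Of these, 982 genes (9.99%) were higher and 1229 (12.5%) were lower in 1% O2+Dox cells than in N2B27 cells. The rises were larger than the falls, as 120 genes rose at least 2-fold and 5 fell at least 2-fold. Beside this, Dox alone called 170 genes (1.73%) and 1% O2 alone called 1958 (19.9%). The 3 comparisons share the N2B27 samples, so they are not independent. Without the replicate block the combined treatment called 493 genes, 290 of them higher. Within replicates 1 and 2 alone it called 1275, and within replicates 3 and 4 alone 616. Without replicate 3 in all groups it called 1421 genes, Dox called 107 and 1% O2 called 1082. Without replicate 1 or replicate 2, Dox called 97 or 102 and 1% O2 called 1232 or 1210. In these bulk samples, fewer cells of a type and less RNA per cell cannot be told apart.

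The largest fitted rises were those of Stc1 and Adm, both HIF targets. Stc1, which encodes a secreted calcium and phosphate regulating hormone, had log2 levels of 10.17, 9.60, 10.18 and 9.64 in 1% O2+Dox cells, 5.96, 5.62, 4.96 and 5.25 in Dox cells, 9.94, 9.65, 10.15 and 9.89 in 1% O2 cells, and 5.70, 4.83, 4.03 and 4.84 in N2B27 cells. All samples under 1% oxygen were high, and the probe was not above background in any Dox or N2B27 sample. The combined rise was therefore at least 12.9-fold (adjusted p = 3.88e-11). A change at such a probe is given as a bound, the bright mean over the higher of the background limit and the dim value. Adm, the vasodilator peptide adrenomedullin, had log2 levels of 10.75, 10.91, 10.96 and 10.07 in 1% O2+Dox cells, 5.99, 6.27, 6.15 and 6.04 in Dox cells, 10.90, 11.00, 11.38 and 10.69 in 1% O2 cells, and 6.56, 6.55, 5.92 and 6.54 in N2B27 cells. Its combined rise was 4.28 ± 0.17 on the log2 scale, 19.4-fold (SE, n = 4 each, adjusted p = 1.34e-14), beside 4.60 under 1% O2 alone. The probe was not above background in any Dox sample, so no Dox change and no departure are given for it.

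Egln3, a HIF prolyl hydroxylase, rose 13.8-fold in the combined treatment, with levels from 11.51 to 11.85 in 1% O2+Dox cells and from 7.60 to 8.24 in N2B27 cells, which did not overlap. Ndrg1, a stress-responsive growth regulator, rose 11.6-fold, and Ankrd37, a HIF target, rose 11.6-fold. Ier3, an immediate early gene, rose 9.30-fold, Aire, the regulator of tissue antigen expression, 8.92-fold, Cdc42ep2, an effector of the GTPase Cdc42, 7.58-fold, and Aoc3, a copper amine oxidase, 7.53-fold. H2-Ab1, an MHC class II chain, was below background in all N2B27 samples and rose at least 4.24-fold. For the 7 of these genes other than H2-Ab1 the change under 1% O2 alone was between 2.98 and 3.90 on the log2 scale, and for H2-Ab1 it was at least 4.47-fold. The change with Dox alone did not pass the test for any of the 8, and H2-Ab1 was above background in 1 of 4 Dox samples. The largest positive departure among them was that of Ankrd37, at 0.36 with an interval from -0.15 to 0.87.

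Among the 12 largest rises, 2 were canonical Notch targets. Nrarp, which feeds back on the Notch complex, had log2 levels of 12.24, 10.79, 10.90 and 10.82 in 1% O2+Dox cells, 12.45, 11.25, 11.18 and 10.80 in Dox cells, 8.62, 8.26, 8.35 and 7.95 in 1% O2 cells, and 8.32, 7.96, 8.03 and 7.56 in N2B27 cells. Both groups with doxycycline were high and did not overlap with the groups without it, and replicate 1 was the highest of each group. The combined rise was 9.31-fold (3.22 ± 0.19 on the log2 scale, adjusted p = 6.77e-12), beside 11.0-fold with Dox alone (adjusted p = 4.01e-11). Hes5, a transcriptional repressor of neural precursors, had levels from 8.16 to 9.08 in 1% O2+Dox cells, from 8.30 to 9.32 in Dox cells, from 5.78 to 6.18 in 1% O2 cells and from 5.45 to 6.33 in N2B27 cells. Its probe was above background in 1 of 4 1% O2 samples and 1 of 4 N2B27 samples, and its fitted rise was 2.92 ± 0.22 on the log2 scale (adjusted p = 5.4e-10).

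The falls were smaller. Gadd45g, a growth arrest gene, had log2 levels from 6.04 to 7.02 in 1% O2+Dox cells, from 6.48 to 7.04 in Dox cells, from 7.28 to 7.93 in 1% O2 cells and from 7.28 to 8.29 in N2B27 cells, and the 1% O2+Dox and N2B27 samples did not overlap. Its combined fall was 2.47-fold (adjusted p = 4.47e-06). Hoxa5, a homeobox gene, fell by 1.30 on the log2 scale, and Insm1, a zinc finger factor of neuroendocrine cells, fell by 1.23. Insm1 was above background in 1 of 4 1% O2+Dox samples and in all 4 N2B27 samples. The Hoxa5 call was lost without the replicate block (adjusted p = 0.0507). En2, the engrailed homeobox gene of the midbrain and hindbrain, fell by 0.95. For Gadd45g, Hoxa5 and En2 the Dox effect was between -1.18 and -0.76, and the effect of 1% O2 was between -0.38 and -0.12. Insm1 was not above background in any Dox sample, a fall of at least 1.78-fold, and its change under 1% O2 alone was 0.04. A second set of falls followed the oxygen level. Tlr2, a Toll-like receptor, fell by 0.92 in the combined treatment, beside -0.20 with Dox alone and -0.72 under 1% O2 alone, and Etv2, an ETS factor of blood and vessel precursors, fell by 0.91, beside -0.31 and -0.74. Gsx1, a homeobox gene, is not placed in either set, as its probe was dim. Its mean log2 levels were 5.28 in 1% O2+Dox, 5.39 in Dox, 5.95 in 1% O2 and 6.29 in N2B27 cells. No 1% O2+Dox or Dox sample was above background, against 1 of 4 1% O2 and 3 of 4 N2B27 samples. The combined fall was at least 1.06-fold (adjusted p = 0.00097). The call was lost on the authors' processed values, which are floored.

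**Figure D1:**
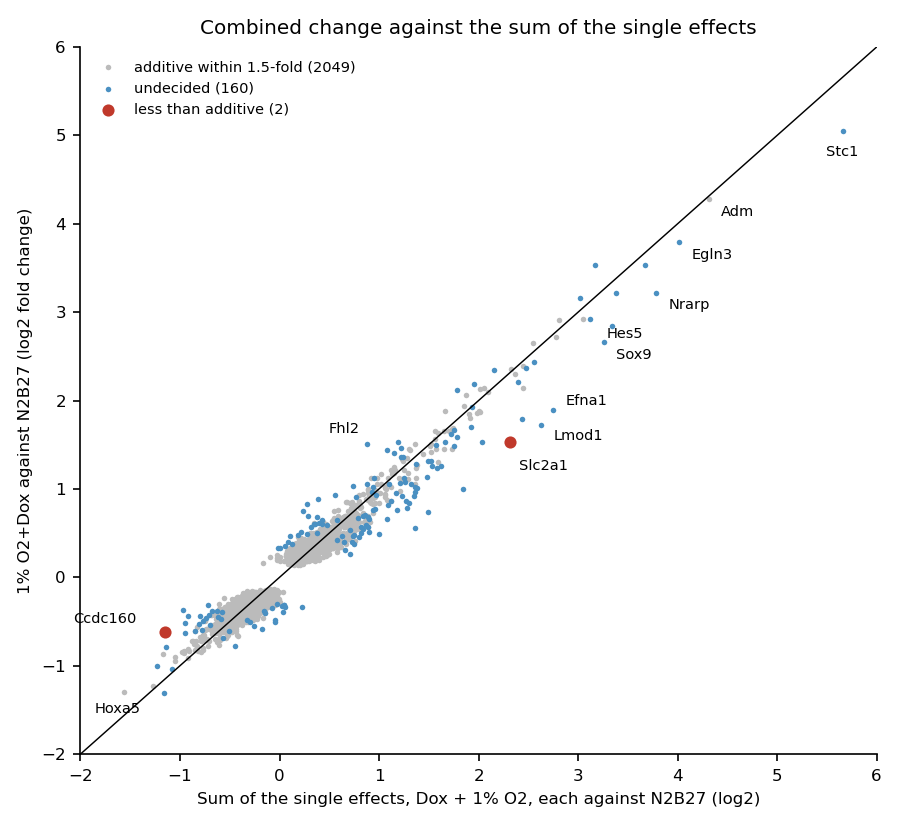
Each point is 1 of the 2211 genes called changed in 1% O2+Dox cells against N2B27 cells. The vertical axis gives the combined log2 fold change, the horizontal axis the sum of the Dox and 1% O2 log2 fold changes, and the line marks equality. Colours give the class (2049 additive within 1.5-fold, 160 undecided, 2 less than additive). Slc2a1, Efna1 and Lmod1 lie below the line, and Fhl2 lies above it. Stc1 and Adm are drawn at fitted values, although their probes were at background in Dox cells.

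By pathway, HIF targets outside glycolysis moved most. Over all genes 9.99% rose and 12.5% fell. Of 38 tested, 32 rose and 0 fell in the combined treatment, with a median change of 1.40 on the log2 scale beside -0.02 over all genes. Vegfa, the blood vessel growth factor, rose 3.09-fold, with levels of 11.46, 11.24, 11.37 and 10.86 in 1% O2+Dox cells and 9.71, 9.63, 9.58 and 9.50 in N2B27 cells, which did not overlap. Of 16 glycolytic and lactate enzymes, 10 rose and 0 fell, with a median of 0.71. Among them were Aldoc, an aldolase, at 3.49-fold, Pfkp, a phosphofructokinase, at 2.97-fold, and Tpi1, triosephosphate isomerase, at 2.33-fold. Pdk1, the kinase that holds pyruvate back from the mitochondria, rose 1.56-fold. Of 32 respiratory chain and ATP synthase subunits, 1 rose and 2 fell, with a median of 0.03. Car9, the carbonic anhydrase, did not pass the test at its brightest probe (0.30 ± 0.12, adjusted p = 0.0646), while its second probe gave 1.05 and passed. Hey2, a Notch target, and Bnip3, a HIF target, were not among the genes tested.

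Of 16 canonical Notch targets, 9 rose and 1 fell, with a median of 0.42, beside 9.99% higher and 12.5% lower over all genes. Hes1, the widely expressed Notch-driven repressor, had levels of 10.54, 10.38, 10.39 and 10.39 in 1% O2+Dox cells, 10.29, 10.41, 10.11 and 10.09 in Dox cells, 9.77, 9.84, 9.74 and 9.59 in 1% O2 cells, and 9.73, 9.56, 9.53 and 9.19 in N2B27 cells. Its combined rise was 1.90-fold (adjusted p = 6.65e-09). The groups with doxycycline did not overlap with those without it. Sox9, a transcription factor of many precursor cells, rose 6.33-fold, and Id4, an inhibitor of DNA binding, rose 1.53 on the log2 scale with a probe above background in 1 of 4 N2B27 samples. Trh, which encodes thyrotropin-releasing hormone, rose 2.74-fold, beside 1.75 on the log2 scale with Dox alone and -0.01 under 1% O2 alone. Of 25 Notch receptors, ligands and machinery genes, 5 rose and 3 fell, and their median was -0.02, the same as over all genes to this precision.

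Genes of the pluripotent state went both ways, as did all genes tested (9.99% higher, 12.5% lower). Of 24 pluripotency genes, 6 rose and 7 fell, and of 18 LIF and STAT3 targets, 3 rose and 7 fell. Gbx2, a homeobox gene of naive ES cells, fell by 0.72, beside -0.70 with Dox alone and -0.14 under 1% O2 alone. Tdgf1, a Nodal co-receptor, rose 1.93-fold, beside 0.19 and 0.71 on the log2 scale, and this call was lost without the replicate block (adjusted p = 0.422). Pou5f1, the core factor Oct4, had a change of 0.24 (adjusted p = 0.0116) at its brightest probe and -0.07 at its second, and the call was lost without replicate 3 (adjusted p = 0.161), under median scaling (0.164) and without the block (0.899). Nanog, at 0.22 (adjusted p = 0.0266), lost its call without replicate 2, 3 or 4, up to an adjusted p of 0.176, and under median scaling (0.232). Otx2, a gene of the primed epiblast, rose 2.33-fold, beside -0.08 and 1.33.

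Among the other lists, cholesterol genes gave rises and no falls. The counts below stand beside 9.99% higher and 12.5% lower over all genes, and no list was tested against those shares. Of 18 genes for cholesterol synthesis and uptake, 10 rose and 0 fell, with a median of 0.31, and of 12 JmjC histone demethylases, 5 rose and 0 fell. Stard4, a sterol carrier, rose by 0.58, and its call was lost without the replicate block (adjusted p = 0.0707) and within replicates 3 and 4 alone (0.0584). Kdm5b, a demethylase of histone H3 lysine 4, rose by 0.65. Of 17 p53 targets, 5 fell and 1 rose, and the gene that rose was Pmaip1, which encodes the death-promoting protein Noxa, at 2.03-fold. Of 24 genes of the integrated stress response, 6 rose and 2 fell, led by Ddit4, an inhibitor of mTOR, at 5.25-fold. Markers of other cell types moved beside these lists, with 5 of 14 fibroblast markers, 6 of 13 endoderm markers, 3 of 10 trophectoderm markers, 3 of 10 mesoderm markers and 6 of 16 neural markers higher, and 1, 0, 2, 2 and 4 of them lower. Their part in the other results was not tested. Housekeeping genes gave 2 rises, Pgk1 and Tfrc, and 0 falls among 11. Pgk1 is also on the list of glycolytic enzymes, and its probe was not above background in any Dox or N2B27 sample. The Tfrc call was lost under median scaling (adjusted p = 0.0613) and without the replicate block (0.505). The other lists gave 3 rises and 0 falls among 10 BMP and Id targets, 4 and 0 among 10 Nodal and activin targets, 4 and 4 among 12 Wnt targets, 3 and 3 among 14 FGF and ERK targets, and 5 and 3 among 28 cell cycle genes.

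**Figure D2:**
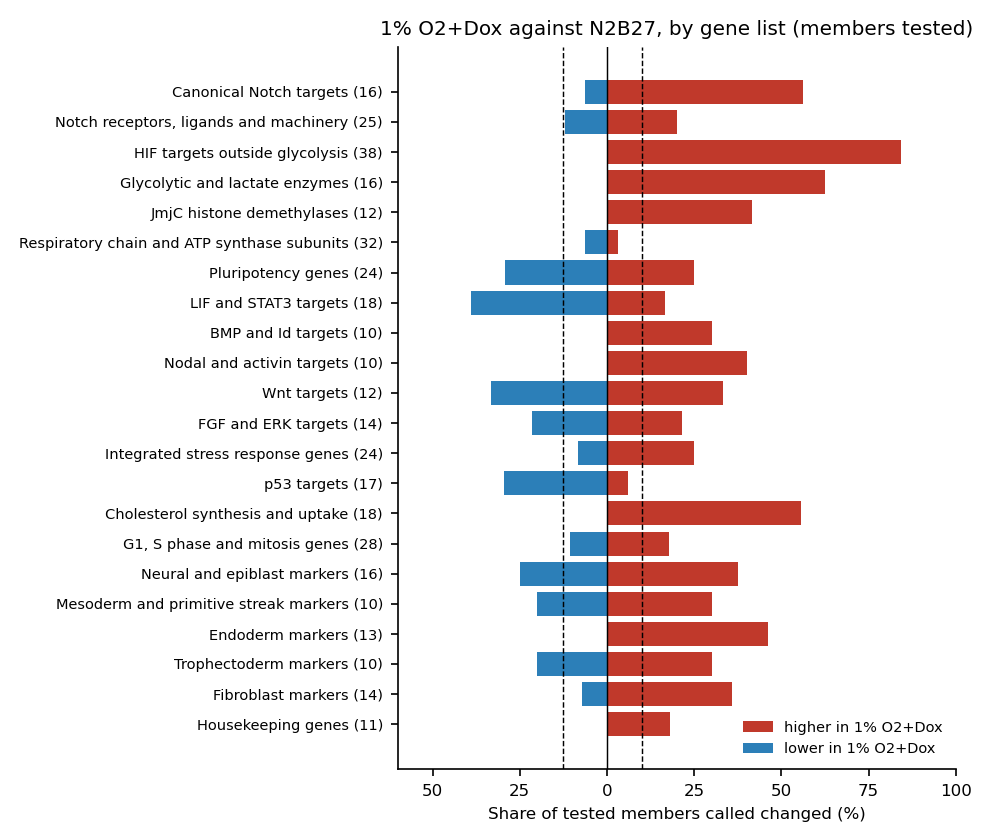
Bars give, for each gene list, the share of tested members (number in brackets) called higher (to the right) or lower (to the left) in 1% O2+Dox cells than in N2B27 cells. Dashed lines mark the shares over all genes, 9.99% higher and 12.5% lower. HIF targets reach the highest share, with 32 of 38 higher.

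The central question was whether the combined change equalled the sum of its parts. On the log2 scale a sum of effects means that the fold changes multiply. The departure, which is the combined change minus the sum of the Dox and 1% O2 changes, was called at an adjusted p under 0.05 for 2 of 9826 genes (0.0204%), and 399 genes had an unadjusted p under 0.05, fewer than 5% of the genes tested (491). The median half-width of its 95% interval over all genes was 0.25 on the log2 scale, or 1.19-fold. Of the 2211 genes called in the combined comparison, 2 were less than additive and 0 were more than additive. A further 2049 were additive within a limit, with a whole 95% interval inside 1.5-fold in either direction, and 160 were undecided because the interval crossed that limit. Dox alone called only 170 of all 9826 genes. For a gene that Dox did not move, this class says only that the combined change was close to the 1% O2 change. Of the 2211 genes, 2086 moved less than 2-fold, and many such changes are small beside the limit. How many of the 2049 genes responded to both treatments was not counted. The class therefore does not show additivity of both effects in all of them. A departure that misses the threshold does not show that the effects add up, and for the undecided genes a departure over 1.5-fold remained inside the interval. In 110 of the 2211 genes at least 1 of the 4 groups had no sample above background, so that the departure rests on a dim group. Of these 110, 55 were counted as additive and 55 as undecided.

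The share of undecided genes was greater among large changes. Of the 125 genes that moved at least 2-fold, 1 was less than additive, 68 were additive within the limit and 56 were undecided, with a median standard error of the departure of 0.19 on the log2 scale. Of the 2086 genes that moved less than 2-fold, 1 was less than additive, 1981 were additive within the limit and 104 were undecided, with a median standard error of 0.11. The falls gave 1 less than additive, 1187 additive and 41 undecided genes, and the rises 1, 862 and 119.

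Slc2a1 was the only rise called less than additive. It encodes the glucose transporter GLUT1, which brings glucose into most cells and is a HIF target. Its log2 levels were 14.67, 14.64, 14.60 and 14.62 in 1% O2+Dox cells, 14.03, 13.80, 13.89 and 13.91 in Dox cells, 14.59, 14.80, 14.68 and 14.43 in 1% O2 cells, and 13.09, 13.15, 13.12 and 13.07 in N2B27 cells. Every treated sample was above every N2B27 sample, and the 1% O2+Dox samples lay within the range of the 1% O2 samples. In 1% O2+Dox cells, 59 other genes had a mean level at or above that of Slc2a1, and the highest value of any sample was 15.86. A limit of the signal at the top of the scale was not tested. The combined rise of Slc2a1 was 1.53 ± 0.07, beside 0.80 with Dox alone and 1.52 under 1% O2 alone, which sum to 2.32. The departure was -0.79, with a 95% interval from -1.005 to -0.579 (adjusted p = 0.000941), and it was negative in all 4 replicates, from -0.86 to -0.65. In folds, the combined rise was 2.88-fold where the single rises were 1.74-fold and 2.87-fold. The call was lost without replicate 1 (adjusted p = 0.130) and without replicate 3 (0.260), while the departure stayed between -0.85 and -0.74 in every fit that left out 1 sample or 1 replicate. It was -0.83 within replicates 1 and 2 alone (adjusted p = 0.556) and -0.75 within replicates 3 and 4 alone (0.852).

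Ccdc160, which encodes a coiled-coil domain protein, was the only fall called less than additive. Its log2 levels were 8.15, 8.10, 8.28 and 8.08 in 1% O2+Dox cells, 7.94, 7.81, 8.04 and 8.01 in Dox cells, 8.41, 8.32, 8.49 and 8.50 in 1% O2 cells, and 8.75, 8.80, 8.80 and 8.70 in N2B27 cells. Each 1% O2+Dox sample was above the Dox sample of its number and below every 1% O2 and N2B27 sample. The combined fall was -0.61 ± 0.06, beside -0.81 with Dox alone and -0.34 under 1% O2 alone, which sum to -1.15. The departure was 0.54, with a 95% interval from 0.35 to 0.72 (adjusted p = 0.0267), and from 0.27 to 0.78 in the 4 replicates. It stands on the edge of the threshold, as the call was lost in 17 of 20 fits that left out 1 sample or 1 replicate (departure from 0.46 to 0.62) and without the replicate block (adjusted p = 0.763). It was 0.66 within replicates 1 and 2 alone and 0.41 within replicates 3 and 4 alone, where neither passed.

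The promoters of both genes, and of Adm, the HIF target that rose 19.4-fold, are shown because they allow the recognition cores of both pathways to be read beside the values. The sequences are RefSeq's for GRCm38.p6, 300 bases each on the plus strand, running 5′ to 3′ across the annotated start with most of the window upstream. Capitals mark ACGTG, the core of the hypoxia response element, and TGGGAA, the core that RBPJ binds, searched on both strands. Slc2a1 lies at chr4:119108495-119108794, Ccdc160 at chrX:52790950-52791249 and Adm at chr7:110627407-110627706.
Slc2a1: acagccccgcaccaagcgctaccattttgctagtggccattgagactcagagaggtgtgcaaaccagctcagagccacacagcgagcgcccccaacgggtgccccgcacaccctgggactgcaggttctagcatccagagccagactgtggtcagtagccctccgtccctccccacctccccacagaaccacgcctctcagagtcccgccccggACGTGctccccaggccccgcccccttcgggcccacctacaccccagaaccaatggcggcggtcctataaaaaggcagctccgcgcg
Ccdc160: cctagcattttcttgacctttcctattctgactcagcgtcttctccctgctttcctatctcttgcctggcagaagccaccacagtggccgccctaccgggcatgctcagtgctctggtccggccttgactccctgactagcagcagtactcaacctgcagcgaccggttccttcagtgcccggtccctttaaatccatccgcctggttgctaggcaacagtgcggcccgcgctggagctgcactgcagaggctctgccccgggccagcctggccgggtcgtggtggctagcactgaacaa
Adm: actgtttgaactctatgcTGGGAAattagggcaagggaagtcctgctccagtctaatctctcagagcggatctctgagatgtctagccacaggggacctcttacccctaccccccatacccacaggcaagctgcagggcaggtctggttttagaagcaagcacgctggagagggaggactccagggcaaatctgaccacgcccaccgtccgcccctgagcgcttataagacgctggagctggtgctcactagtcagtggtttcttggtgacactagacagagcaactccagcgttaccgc
The Slc2a1 window holds 1 ACGTG and 0 TGGGAA, the Ccdc160 window holds neither, and the Adm window holds 1 TGGGAA and 0 ACGTG. Of all 32851 promoters in the same table, 19.6% hold ACGTG, 25.6% hold TGGGAA and 4.70% hold both. A match is a description of letters, and no match says only that these letters are not in this window. No promoter was listed for Stc1.

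**Figure D3:**
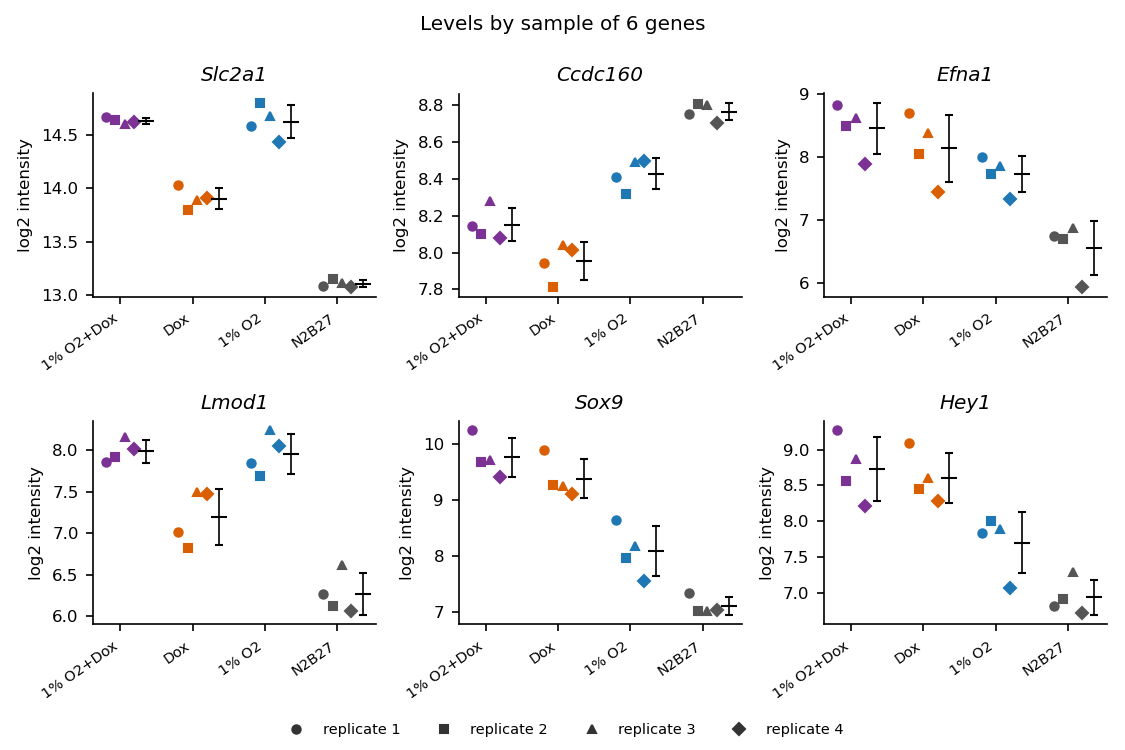
Normalised log2 intensity of 6 genes in each sample, with 1% O2+Dox, Dox, 1% O2 and N2B27 cells from left to right. Symbols give the replicate number and bars the mean and SD (n = 4). The 1% O2+Dox samples of Slc2a1 lie at 14.60 to 14.67, among the 1% O2 samples, and those of Ccdc160 lie between the Dox and the 1% O2 samples.

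The genes nearest to the threshold on its other side were Efna1 and Lmod1, both at an adjusted p of 0.110. Lmod1 and, further on, Dusp1, Efnb1, Fhl2 and Mapk1ip1 were chosen after their values were seen. Efna1, the ligand ephrin-A1, had log2 levels of 8.82, 8.49, 8.62 and 7.88 in 1% O2+Dox cells, 8.69, 8.04, 8.38 and 7.44 in Dox cells, 7.99, 7.72, 7.86 and 7.33 in 1% O2 cells, and 6.74, 6.69, 6.87 and 5.93 in N2B27 cells. The combined rise was 1.90, beside 1.58 and 1.17 for the single treatments, and the departure was -0.85 (95% interval -1.20 to -0.50). Lmod1, an actin nucleator of smooth muscle, rose by 1.72, beside 0.94 with Dox alone and 1.69 under 1% O2 alone, with a departure of -0.90 (-1.27 to -0.53), and was above background in 2 of 4 N2B27 samples. Both departures were negative in all 4 replicates. In the fit of the 16 samples alone 6 departures passed the threshold. They included Slc2a1 and Ccdc160, and also Efna1, Lmod1 and Mapk1ip1 (adjusted p = 0.0443 for each of these 3). Lmod1 also passed on the authors' processed values (adjusted p = 0.0392).

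Over all 982 rises the departure was negative in 518, with a median of -0.006. Of the 120 genes that rose at least 2-fold it was negative in 74, with a median of -0.06. Several other rising genes had negative departures, and none passed the test after adjustment over all genes. Their unadjusted intervals did not reach 0, in a comparison where the genes with an unadjusted p under 0.05 numbered fewer than 5% of those tested. Hey1, a Notch-driven repressor of the Hairy family, rose by 1.79, beside 1.67 and 0.76, with a departure of -0.64 (-1.12 to -0.17). Sox9 rose by 2.66, beside 2.27 and 0.99, with a departure of -0.60 (-1.01 to -0.18). Its levels were 10.24, 9.68, 9.72 and 9.41 in 1% O2+Dox cells and 9.89, 9.27, 9.25 and 9.11 in Dox cells, so each combined sample was above the Dox sample of its number. Nrarp had a departure of -0.56 (-1.11 to -0.02). Dusp1, a phosphatase of MAP kinases, rose by 1.54, beside 0.52 and 1.52, with a departure of -0.50 (-0.73 to -0.27, adjusted p = 0.300). Efnb1, the ligand ephrin-B1, rose by 0.79, beside 1.08 with Dox alone and 0.20 under 1% O2 alone, which did not pass, with a departure of -0.49 (-0.72 to -0.26, adjusted p = 0.300), and its combined call was lost without the replicate block (adjusted p = 0.390).

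Fhl2, a LIM-domain cofactor, leaned the other way. Its log2 levels were 8.69, 8.41, 8.11 and 7.76 in 1% O2+Dox cells, 7.61, 7.28, 6.49 and 6.66 in Dox cells, 7.65, 7.52, 7.32 and 6.82 in 1% O2 cells, and 7.24, 6.70, 6.40 and 6.58 in N2B27 cells. Each 1% O2+Dox sample was above the other samples of its number. The combined rise was 1.51, beside 0.28 and 0.60, and the departure of 0.63 (0.25 to 1.02) was positive in all 4 replicates but did not pass the test (adjusted p = 0.663). Mapk1ip1 had a change of -0.13 in the combined treatment, which did not pass, although it fell by 0.46 with Dox alone and by 0.34 under 1% O2 alone. Its departure was 0.67 (0.38 to 0.96, adjusted p = 0.160), and it passed only in the fit of the 16 samples alone (adjusted p = 0.0443).

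**Figure D4:**
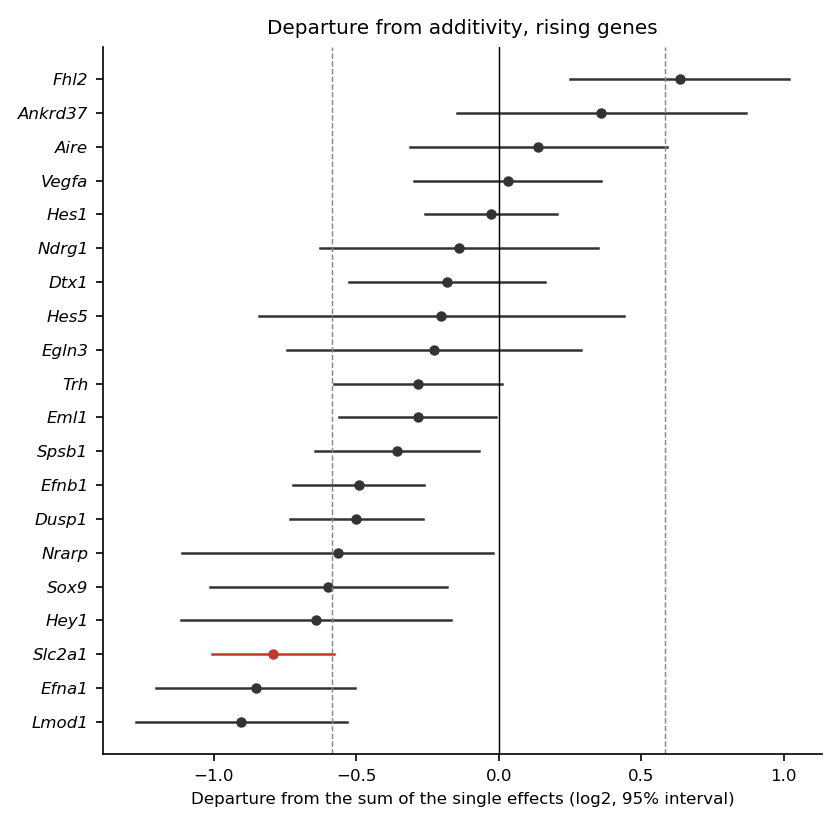
Departure of the combined change from the sum of the Dox and 1% O2 changes for 20 genes that rose in 1% O2+Dox cells, with 95% intervals on the log2 scale. Dashed lines mark 1.5-fold in either direction. Slc2a1, in red, is the one gene shown whose departure passed the test (-0.79).

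The scale of the sum bears on these departures. If the increments in signal are added instead of the log2 changes, the sum expected for Slc2a1 is 3.61-fold, against 2.88-fold observed. The departure from the linear sum was tested in a separate limma fit of 4 values per gene, 1 per replicate number. In that fit 0 genes passed (1069 had an unadjusted p under 0.05). It rests on fewer values than the model of 28 samples. Scale and fit changed together, and their parts in the lost calls were not tested. For Slc2a1 the departure from the linear sum was -0.33 on the log2 scale (adjusted p = 0.193), and for Ccdc160 it was 0.90 (adjusted p = 0.108). For Sox9 the observed rise of 6.33-fold stood between a linear sum of 5.82-fold and a product of 9.58-fold. For Efna1, 3.72-fold observed stood below both 4.24-fold and 6.73-fold, for Hey1 3.46-fold stood below 3.88-fold and 5.40-fold, and for Fhl2 2.85-fold stood above 1.72-fold and 1.83-fold.

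Some genes raised or lowered by both treatments had a departure smaller than the 1.5-fold limit. The unadjusted intervals of Eml1, Hoxa5 and Tril, given below, still did not reach 0. The genes in this paragraph other than Hes1, Hoxa5, En2 and Tril were chosen after their values were seen. Dtx1, a ubiquitin ligase of the Notch pathway, rose by 1.11, beside 0.64 with Dox alone and 0.65 under 1% O2 alone, with a departure of -0.18 (-0.52 to 0.16). Eml1, a microtubule-binding protein, rose by 1.31, beside 0.98 and 0.62, with a departure of -0.28 (-0.56 to -0.01). Hes1 rose by 0.92, beside 0.72 and 0.23, with a departure of -0.03 (-0.26 to 0.20). Among falls, En2 was lowered by both treatments (-0.76 and -0.29) and had a departure of 0.10 (-0.16 to 0.36). Hoxa5, at -1.18 and -0.38, had a departure of 0.27 (0.01 to 0.54), and Tril, a Toll-like receptor partner, at -0.43 and -0.75, had a departure of 0.31 (0.06 to 0.55). Satb1, a chromatin organiser, fell by 0.77, beside -0.27 and -0.44, and Junb, an AP-1 subunit, fell by 0.62, beside -0.27 and -0.20, with departures of -0.06 and -0.14. The combined calls of Satb1 (adjusted p = 0.173) and Junb (0.0763) were lost without the block.

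In 8 genes that the single treatments moved in opposite directions, the combined mean lay between the single means. These genes, apart from Notch1, were chosen after their values were seen. Edn2, the vasoconstrictor peptide endothelin-2, had log2 levels of 8.96, 9.35, 9.51 and 8.43 in 1% O2+Dox cells, 7.92, 8.58, 8.64 and 7.86 in Dox cells, 9.92, 10.33, 10.36 and 9.34 in 1% O2 cells, and 8.79, 9.32, 9.59 and 8.72 in N2B27 cells. The 1% O2+Dox and N2B27 samples overlapped. It fell by 0.86 with Dox alone and rose by 0.88 under 1% O2 alone, and its combined change of -0.04 did not pass the test (95% interval of the departure -0.41 to 0.26). Pou3f1, the POU factor Oct6 of the epiblast, fell by 0.84 with Dox alone and rose by 0.60 under 1% O2 alone. Its combined change of -0.16 did not pass (adjusted p = 0.264), with levels of 10.42, 10.28, 10.19 and 9.57 in 1% O2+Dox cells and 10.67, 10.06, 10.38 and 10.00 in N2B27 cells.

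The probe of Olig3, a bHLH factor of the neural tube, was not above background in any Dox sample, so its Dox fall is given as at least 1.54-fold. Olig3 rose by 0.68 under 1% O2 alone, and the combined change was -0.42 (adjusted p = 0.0166). The combined call was lost without replicate 3, without replicate 4 (adjusted p up to 0.102), on the authors' processed values (0.205) and without the block (0.406). In Klf2, a Kruppel-like factor of naive ES cells, the rise under 1% O2 (0.73) exceeded the fall with Dox (-0.42), and the combined change was 0.42 (adjusted p = 0.000137). Its levels were 11.03, 10.61, 10.92 and 10.33 in 1% O2+Dox cells and 10.56, 10.39, 10.35 and 9.92 in N2B27 cells, higher in all 4 pairs although the ranges overlapped, and the call was lost without the block (adjusted p = 0.228). Sertad1, a cofactor of E2F and cyclin-dependent kinase 4, gave 0.33 (adjusted p = 0.00599), beside -0.50 and 0.70. Its call was lost without replicate 3 (adjusted p = 0.0593), within replicates 3 and 4 alone (0.231) and without the block (0.0662).

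Notch1, the receptor gene, ran in the reverse sense, with a rise of 0.66 with Dox alone and a fall of 0.54 under 1% O2 alone. Its levels were 9.79, 9.65, 9.72 and 9.87 in 1% O2+Dox cells, 10.24, 9.97, 10.36 and 10.33 in Dox cells, 8.78, 8.87, 9.26 and 9.19 in 1% O2 cells, and 9.35, 9.44, 9.82 and 9.67 in N2B27 cells. The 1% O2+Dox and N2B27 samples overlapped, and the combined change of 0.18 did not pass the test (adjusted p = 0.0905). It passed on the authors' processed values (adjusted p = 0.0473). Whether this probe reads the transgene as well as the cell's own gene was not tested. Hes6, a bHLH factor that opposes Hes1, had 0.15 in the combined treatment, beside -0.40 and 0.53, and Fst, the activin antagonist follistatin, had 0.09, beside -0.47 and 0.51, and neither combined change passed. For the 7 genes with opposed effects other than Olig3, whose departure rests on a dim Dox group, the departures lay between -0.07 and 0.13 and their intervals all lay inside 1.5-fold. All of these but Notch1 were chosen after their values were seen. Their small departures therefore do not test whether opposed effects add up in other genes.

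**Figure D5:**
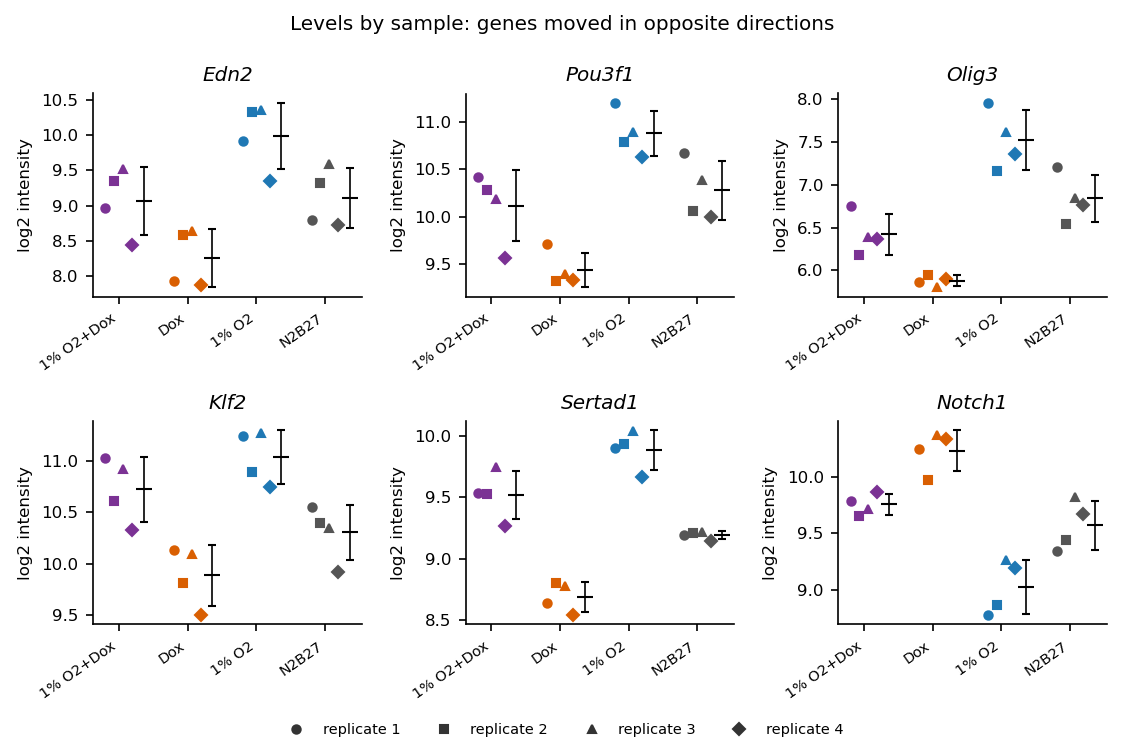
Normalised log2 intensity of 6 genes moved in opposite directions by the single treatments, with 1% O2+Dox, Dox, 1% O2 and N2B27 cells from left to right. Symbols give the replicate number and bars the mean and SD (n = 4). In Edn2 the 1% O2+Dox samples (8.43 to 9.51) overlap the N2B27 samples (8.72 to 9.59), and their mean of 9.06 lies between the means of the Dox samples (8.25) and the 1% O2 samples (9.99).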

How the data were processed

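Illumina BeadChip signals of 30 arrays (28 samples, 24611 probes) were analysed. The deposited table holds intensity values on a linear scale, not normalized, per the file headers, from BeadStudio per the submitters' processing notes. Between 27.2% and 29.9% of them were below 0, so a background had been subtracted. The authors' processed intensity table, floored at 50, served as an alternative. The members, gene lists and named genes were chosen with earlier results of these data known.

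Signals were corrected with normexp (offset 0), log2 transformed and quantile normalized (limma 3.58.1, R 4.3.3). Named probes above their array's median on at least 4 samples were kept, 1 probe per gene (the brightest), giving 9826 genes. Of all probes, 20983 had 1 gene symbol, 1 several and 3627 none. With no detection p-values, the background limit per array was the 98th percentile of mirrored negative signals (29.3 to 41.6). There is no read depth on arrays; the number of arrays limits the precision.

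All 28 samples entered 1 limma model with 7 group means and the replicate number as a block, since all 24 same-number correlations of deviations were above 0.1 (18 residual degrees of freedom). Two-sided p-values were Benjamini-Hochberg adjusted over all genes, threshold 0.05, and all adjusted p-values come from limma. The departure is the interaction, 1% O2+Dox minus Dox minus 1% O2 plus N2B27. Text genes were the 12 largest rises and falls called with the same sign in all 4 pairs and above background on at least 3 arrays of the higher group, the called departures, a set list of 23 pathway genes and up to 4 members of each list, and others are marked as chosen after their values were seen. The code of the fit was checked on simulated data with known departures and independent errors. The share of those departures recovered is not given here. Alternatives covered the block, scaling, background, filter, probe, samples, and a linear sum. The linear sum was tested in a separate limma fit of 4 values per gene, 1 per replicate number.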

Additional observations from a re-analysis of the deposited data

Results flagged for a closer look

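Departures from the sum of the single effects passed the test for 2 genes, Slc2a1 (-0.79 on the log2 scale) and Ccdc160 (0.54). On this scale a departure means a Dox effect that differs between oxygen levels. On the linear sum, tested in a separate limma fit of 4 values per gene, neither passed (adjusted p = 0.193 and 0.108). The calls were lost in 2 and 17 of 20 fits that left out 1 sample or 1 replicate number.

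Of 152 groups of 4 values of the named genes, 11 held 1 sample far from the other 3, and chance flags about 1 group in 20. In 1% O2+Dox cells, replicate 1 was high for Nrarp (12.24, others 10.79 to 10.90), Hes1 (10.54, others 10.38 to 10.39) and Trh (15.19, others 14.33 to 14.40). Replicate 4 of 1% O2+Dox was low for Ier3 (11.84, others 12.65 to 12.77), Aoc3 (8.78, others 9.55 to 9.70) and H2-Ab1 (7.57, others 8.52 to 8.55), and high for Nfkbid (9.52, others 8.90 to 8.99). Hoxa5 was low in replicate 2 of Dox (6.85, others 8.001 to 8.182) and of N2B27 (8.05, others 9.16 to 9.35). In N2B27 cells, Adm was low in replicate 3 (5.92, others 6.54 to 6.56) and Sox9 was high in replicate 1 (7.35, others 7.02 to 7.03).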

How the results depend on the processing

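All settings here were chosen with earlier results of these data known. Without the replicate block, which pairs the samples by number, the combined comparison called 493 genes, Dox 33 and 1% O2 402, the departure 1, and the classes held 1 less than additive and 342 additive genes. Of 121 named combined results, 49 lost their call without the block. The 121 include results that were not called in the main fit, such as those of Car9, Notch1 and Edn2. Within replicates 1 and 2 alone the counts were 1275 combined, 66 Dox, 979 for 1% O2, 1 departure (Psmc1), 0 less than additive, 994 additive and 281 undecided. Within replicates 3 and 4 alone they were 616, 38, 438, 0, 0 and 417 additive. These fits have fewer samples, and the cause of the differences was not tested further. The 16 samples alone gave 6 departures and 4 less than additive genes. No filter on dim probes and leaving out the repeat arrays of Dox each gave 1 departure and 1 less than additive gene. The linear sum, tested in its own fit of 4 values per gene, gave 0 departures, 0 less than additive and 100 undecided genes. Undecided genes numbered 32 with a normexp offset of 50 and 273 on the authors' processed values. A stricter limit gave 1143 additive and 1066 undecided genes, and a 2-fold limit 22 undecided. In no setting was a gene more than additive.

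The Slc2a1 departure was -0.83 in replicates 1 and 2 (adjusted p = 0.556), -0.75 in replicates 3 and 4 (0.852) and -0.33 on the linear sum. The Ccdc160 departure was 0.54 without the block (0.763), 0.54 without the filter (0.0790), 0.55 without the repeat arrays (0.0646), 0.66 in replicates 1 and 2, 0.41 in replicates 3 and 4 and 0.90 on the linear sum. On second probes 3 combined changes reversed, Ifnlr1 (0.029), Pou5f1 (-0.067) and Spred2 (0.082). Leaving out 1 sample or 1 replicate number gave 1421 to 2210 combined, 97 to 177 Dox, 1082 to 1986 1% O2, 0 to 2 departures, 0 to 2 less than additive, 1227 to 2005 additive and 158 to 244 undecided genes, departures of -0.85 to -0.74 for Slc2a1 and 0.46 to 0.62 for Ccdc160. No detection p-values were used, so dim probes rest on an estimated background.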
